A study of Homo sapiens with 6 samples.

Results

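The 41 genes described here are a list of DNA damage repair and checkpoint genes, taken by symbol and looked up by their RefSeq spans among 20037 protein-coding genes of build GRCh38. All 41 symbols were found. A member's peaks were those of at most 1000 bp, called narrow peaks below, whose summit (the position of the highest read pile) lay inside its span. The lists of 3 samples gave 175, 524 and 138 such peaks, 837 in all. The peaks came from RNA immunoprecipitation sequencing (RIP-seq) of SmD2, a core subunit of the Sm ring of the spliceosome that is encoded by SNRPD2. They came from HEK293T, a widely used human line of embryonic kidney origin, in a group labelled SNRPD2OE (overexpression of SNRPD2) with replicates 1, 2 and 3. A control group (Ctrl) of 3 samples is labelled in the same cell line and was not analysed here, so no enrichment over control was measured. Whether separate cultures were used for the replicates is not in the labels, nor whether the line is a clone or which promoter drove the overexpression. Their extraction text describes total RNA with ribosomal RNA removed rather than the immunoprecipitation.

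Cells answer DNA damage with sensor kinases, which mark the break and hold the cell cycle, and with repair machines matched to the lesion. Double-strand breaks are either rejoined directly by nonhomologous end joining or copied from the sister chromatid by homologous recombination. Nicks, bulky adducts, mispaired bases and interstrand crosslinks go to single-strand break repair, nucleotide excision repair, mismatch repair and the Fanconi anaemia pathway. Many of these genes are long and hold many introns, and the Sm ring is part of the small nuclear ribonucleoproteins that recognise and remove introns. A RIP peak in such a gene marks a stretch where the sequenced RNA piled up above the peak caller's local background, and no more than that.

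Narrow peaks reached the first transcribed bases of several members, and those of some are printed here as examples of stretches on which positions at the 5′ end rest. RefSeq promoter windows of build GRCh38 run from 250 bases before to 50 bases after a start site. They were given for 36 of the 41 members, as 53 windows. A narrow peak overlapped a window of 16 members, though by 1 base only in BRCA1 and with 1 or 2 reads in LIG4. The same count over all protein-coding genes was not made, so the 16 has no background here. Each line gives transcribed bases 21 to 50 of a start site, 5′ to 3′ on the gene's strand. Capitals mark the bases that at least 1 narrow peak covered. Stretches of other members are not printed, among them ATM, ATR and XRCC2, where 1 list covered all 30 bases.

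XPC: ccagacaagcaacatggctcgGAAACGCGC

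ERCC3: CCTGTGGGAGCGGGGTCATCTTCTCTCTGC

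ERCC2: tccggccGGCGCCATGAAGTGAGAAGGGGG

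BLM: GCTTGGCGCGGCGGCCGTGGTTGCGGCGCG

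FANCA: ggcgccaaGGCCATGTCCGACTCGTGGGTC

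FANCD2: gcggcgacggcttctcggtgagtaAGTGGA

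The XPC stretch is chr3:14178552-14178581 on the minus strand, and peaks of all 3 lists reached it. They covered 5, 9 and 1 of its bases in replicates 1, 2 and 3. The ERCC3 stretch is chr2:127294095-127294124 on the minus strand, covered in full by a peak of replicate 3 and in part by one of replicate 1. Each of the other stretches was reached by 1 list. They lie at chr19:45370524-45370553 (minus strand, ERCC2, replicate 1), chr15:90717366-90717395 (plus strand, BLM, replicate 1), chr16:89816598-89816627 (minus strand, FANCA, replicate 3) and chr3:10026457-10026486 (plus strand, FANCD2, replicate 1). The share of G and C was high in most of them: 25 of the 30 bases in BLM, 21 in ERCC2 and in FANCA, 19 in ERCC3 and in FANCD2, and 18 in XPC.

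Some letters that are known contexts of the study's subject were searched in the first 50 transcribed bases of the 53 windows, on the transcribed strand. TNTAA and TNTAG, which differ in the last base and stand for the sequence context of the pseudouridine synthase PUS7, were in 2 (3.77%) and 7 (13.2%) windows of members, against 7.93% and 8.13% of all 35093 windows. GTAAG and GTGAG, the start of many introns, were in 1 (1.89%) and 6 (11.3%) windows, against 2.54% and 7.57%. FANCD2 holds both in the stretch printed above, where they overlap, and ERCC2 holds GTGAG. In FANCD2 the peak covered no base of GTGAG and only the end of GTAAG, while in ERCC2 it covered GTGAG in full. The letters of an Sm site, ATTTTTG, were in 0 of the 53 windows and in 0.274% of all windows. Over the whole 300 bases and both strands, TNTAA was in 50.9% of the members' windows against 59.8% of all, TNTAG in 52.8% against 62.8%, GTAAG in 18.9% against 23.5%, GTGAG in 43.4% against 49.2%, and ATTTTTG in 3.77% against 4.12%.

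The 3 lists differ in make-up, which touches every count below. They hold 30109, 160931 and 15813 narrow peaks on the nuclear chromosomes, and these are 24.3% of the peaks of replicate 3. Peak numbers in each list begin above 1, so peaks numbered before the first listed one were not analysed here, and all counts and shares hold for the listed peaks. In the members, replicate 3 had 57 further peaks wider than 1000 bp (29.2% of its member peaks), of median width 7071 bp and with a median of 1 read at the summit, and replicates 1 and 2 had 0. The widest member peaks within the limit were 311, 289 and 909 bp, and the narrowest outside it was 1003 bp. SNRPD2 itself had 2 narrow peaks in each list, the highest with 78, 80 and 78 reads, which are also the highest read numbers of the whole lists. Of genes that mark HEK293T cells, LIN28B had 2, 7 and 1 narrow peaks, PAX2 2, 6 and 0, NEFL 2, 7 and 0, and NEFM 0, 3 and 0. Of markers of other cell types, CD3E, HBB and INS had none in the 3 lists, and ALB (5 peaks), PTPRC (1) and MYH7 (1) had peaks in replicate 2 only, of at most 3 reads. A peak list shows presence of a peak, not expression, and the abundance of the members' transcripts was not measured.

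Most repair genes had narrow peaks in each list, and replicate 2 held the most peaks. At least 1 narrow peak lay in 35 of 41 members in replicate 1, in 41 of 41 in replicate 2 and in 35 of 41 in replicate 3. The same held for 45.3%, 76.7% and 30.3% of all protein-coding genes. In all 3 lists 31 of the 41 members had one, against 23.9% of protein-coding genes. The median member had 3, 11 and 2 narrow peaks in replicates 1, 2 and 3. Per 100 kb of span the members held 6.13, 18.3 and 4.83 peaks. Members with no narrow peak in replicate 1 were NBN, XRCC2, XRCC4, LIG4, XRCC1 and MSH6, and those with none in replicate 3 were RNF8, PALB2, RAD54L, WRN, XRCC4 and LIG4. XRCC4 and LIG4, the partners that seal the break in end joining, had narrow peaks in replicate 2 only (10 and 5).

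**Figure D1:**
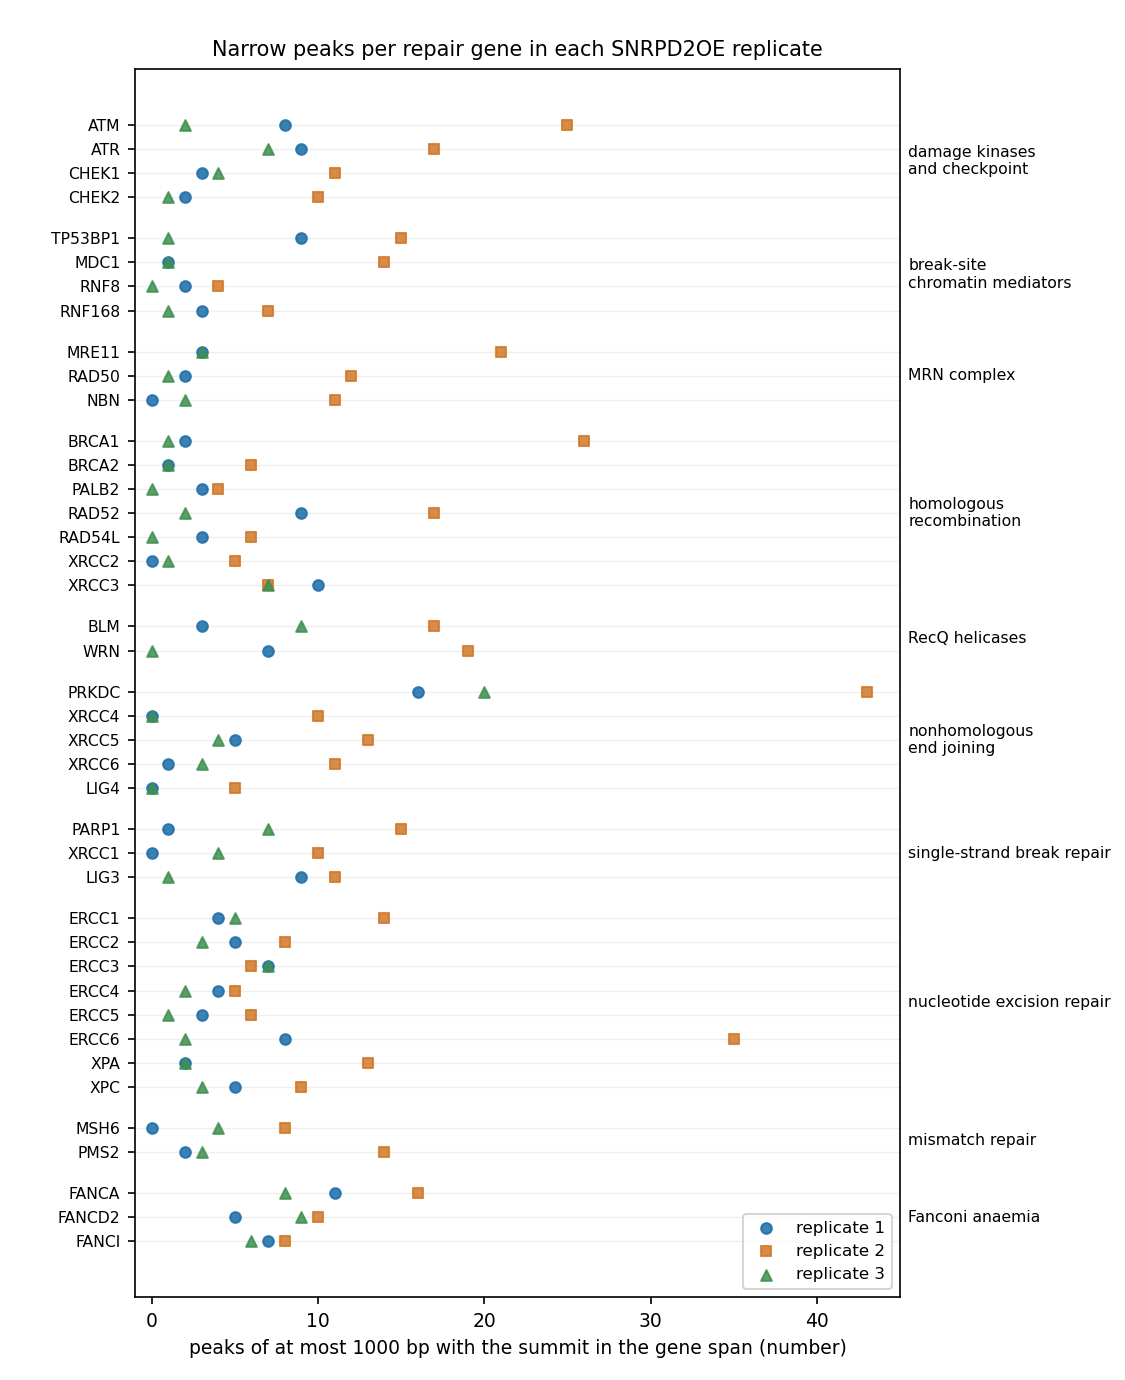
Number of narrow peaks (at most 1000 bp, summit inside the gene span) of each of the 41 repair genes, grouped by pathway, with 1 symbol for each SNRPD2OE replicate. Replicate 2 lies to the right for most genes, up to 43 peaks in PRKDC, while XRCC3, ERCC3 and FANCI have like numbers in the 3 lists.

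The sensor and checkpoint kinases all had narrow peaks in the 3 lists but no position that the lists shared. ATM, the kinase that answers double-strand breaks, had 8, 25 and 2 narrow peaks over 146 kb (chr11:108223067-108369102, plus strand). The most reads at any of its summits were 6, 7 and 7, and 12 of its 35 peaks also lay in the span of C11orf65. ATR, which answers single-stranded DNA at stalled forks, had 9, 17 and 7 peaks over 129 kb, and its strongest peak by −log10 p was in replicate 2 (8 reads, deposited fold 6.74, −log10 p 9.96). The deposited fold compares the scaled read pile with the local background of the peak caller after 1 is added to each, and is the authors' own value, used here only within a list. CHEK1 and CHEK2, the kinases that carry the signal to the cell cycle, had 3, 11 and 4 and 2, 10 and 1 peaks. The 4 genes together held 5.71, 16.3 and 3.63 peaks per 100 kb, close to the figures for all members. Sites common to replicates 1 and 2 were present in each of the 4 genes.

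Genes for the proteins that build the repair platform on chromatin had few narrow peaks in replicate 3, where wide peaks outnumbered them. The 4 genes of the chromatin platform had 3 narrow and 5 wide peaks there, and the 3 of the MRN complex described after them had 6 and 8. TP53BP1, whose product steers breaks toward end joining, had 9, 15 and 1 narrow peaks over 108 kb, and 4 sites common to replicates 1 and 2. MDC1, the scaffold that binds phosphorylated H2AX, had 1, 14 and 1 peaks in a short span of 17.5 kb, 80.1 per 100 kb in replicate 2. Of those 16 peaks, 11 also lay in the antisense gene MDC1-AS1, and since the strand is not part of a peak list these reads cannot be given to either gene. The ubiquitin ligases RNF8 and RNF168 had 2, 4 and 0 and 3, 7 and 1 peaks. For MRE11, RAD50 and NBN, the complex that tethers and trims broken ends, the counts were 3, 21 and 3, then 2, 12 and 1, and then 0, 11 and 2. None of these 7 genes had a site shared by the 3 lists.

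Among the genes of homologous recombination, XRCC3 and RAD52 had stretches where peaks of all 3 lists overlapped, XRCC3 at 3 places. XRCC3, a recombination factor, had 10, 7 and 7 narrow peaks over 17.8 kb, or 56.1, 39.2 and 39.2 per 100 kb. Against this, BRCA1 had 2, 26 and 1 peaks over 126 kb, or 1.59, 20.6 and 0.793 per 100 kb. The 26 peaks of replicate 2 had at most 5 reads at the summit, and all 26 together held 34 reads. Of the 29 BRCA1 peaks, 21 also lay in another gene of the annotation, such as NBR2, which overlaps its span. BRCA2, a mediator of recombination, had 1, 6 and 1 peaks, and its partner PALB2 had 3, 4 and 0. RAD52, which anneals single strands, had 9, 17 and 2 peaks, RAD54L 3, 6 and 0, and XRCC2 0, 5 and 1. The RecQ helicases, which unwind recombination intermediates, parted in replicate 3: BLM had 3, 17 and 9 peaks and WRN had 7, 19 and 0.

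Nonhomologous end joining held the member with the most peaks, PRKDC, and the member summit with the most reads, in XRCC6. PRKDC, the catalytic subunit of the DNA-dependent kinase and a gene of 187 kb, had 16, 43 and 20 narrow peaks, the highest count of any member in each list. Per 100 kb these were 8.55, 23 and 10.7, against 6.13, 18.3 and 4.83 for all members. Summed over summits, PRKDC peaks held 360, 954 and 487 reads. XRCC5 and XRCC6 encode the Ku heterodimer that grips broken ends. XRCC5 had 5, 13 and 4 peaks with 128, 295 and 102 reads in all, and XRCC6 had 1, 11 and 3 peaks with 45, 455 and 102 reads. The highest XRCC6 peak of replicate 2 had 57 reads, the most at any member summit, and yet a deposited fold of 1.78, as its background was also high. In replicate 3 the strongest member peak by −log10 p was in XRCC6, at chr22:41621977-41622037 (24 reads, fold 6.13, −log10 p 9.41). XRCC6 has 5 annotated pseudogene copies, among which reads could be split, so its counts are uncertain.

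The single-strand break genes showed large gaps between the lists. PARP1, the sensor that builds poly(ADP-ribose) at nicks, had 1, 15 and 7 narrow peaks with 17, 404 and 116 reads. XRCC1, the scaffold of this pathway, had 0, 10 and 4, and its strongest peak by −log10 p in replicate 2 had 11 reads (fold 6.69, −log10 p 10.20). LIG3, the ligase that XRCC1 carries, had 9, 11 and 1 and shared 5 sites between replicates 1 and 2. The mismatch repair genes MSH6, which reads the mispair, and PMS2, the nicking subunit, had 0, 8 and 4 and 2, 14 and 3 peaks. PMS2 has 15 annotated pseudogene copies, so reads at its span are uncertain.

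Nucleotide excision repair was the largest group and each of its 8 genes had a narrow peak in every list. The group held 38, 96 and 25 peaks, or 11, 27.8 and 7.25 per 100 kb, above the 6.13, 18.3 and 4.83 of all members. Its median span was 35.2 kb, and all members of 20 to 50 kb held 8.51, 24.6 and 7.41 per 100 kb. Single-strand break repair held 9.09, 32.7 and 10.9 and mismatch repair 3.07, 33.8 and 10.7, both denser in replicates 2 and 3. ERCC6, the factor that couples repair to transcription, had 8, 35 and 2 peaks over 105 kb, or 7.64, 33.4 and 1.91 per 100 kb. Its 35 peaks of replicate 2 held 54 reads in all. The helicases ERCC2 and ERCC3, both subunits of the general factor TFIIH, had 5, 8 and 3 and 7, 6 and 7 peaks in short spans of 20.7 and 36.9 kb. The strongest member peak of replicate 1 by −log10 p was in ERCC2, at chr19:45361587-45361640 (9 reads, fold 5.75, −log10 p 8.58). XPC, which finds the distorted helix, had 5, 9 and 3, and XPA, which checks the damage, had 2, 13 and 2. The nuclease genes ERCC1, ERCC4 and ERCC5 had 4, 14 and 5, 4, 5 and 2, and 3, 6 and 1 peaks. Of the 10 ERCC5 peaks, 10 also lay in the span of BIVM-ERCC5, the read-through gene that holds it.

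Each of the 3 Fanconi anaemia genes had at least 5 narrow peaks in every list. FANCA, of the core complex, had 11, 16 and 8 narrow peaks, FANCD2 had 5, 10 and 9, and FANCI, its clamp partner, had 7, 8 and 6. As a group they held 10.1, 14.9 and 10.1 peaks per 100 kb, so replicate 2 stood at less distance from the other lists than over all members (18.3 against 6.13 and 4.83). FANCD2 has 2 annotated pseudogene copies.

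Agreement in position is a narrower measure than agreement in the gene. Narrow peaks that overlapped by at least 1 bp were joined into sites, and a shared site is one that holds a peak of each list. The members held 709 sites, of which 13 (1.83%) were shared by the 3 lists, against 1.45% of 141684 sites in protein-coding genes. At least 2 lists met at 115 sites (16.2%, against 10.4%), and those of exactly 2 lists were 52 for replicates 1 and 2, 13 for replicates 1 and 3 and 37 for replicates 2 and 3. The 13 shared sites lay in 9 of the 41 members, and 7.48% of protein-coding genes had such a site. They fell in end joining (XRCC5 and PRKDC, 3 sites), homologous recombination (XRCC3 and RAD52, 4 sites), nucleotide excision repair (ERCC2, ERCC3 and XPC, 4 sites), the RecQ helicase BLM (1 site) and FANCA (1 site).

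**Figure D2:**
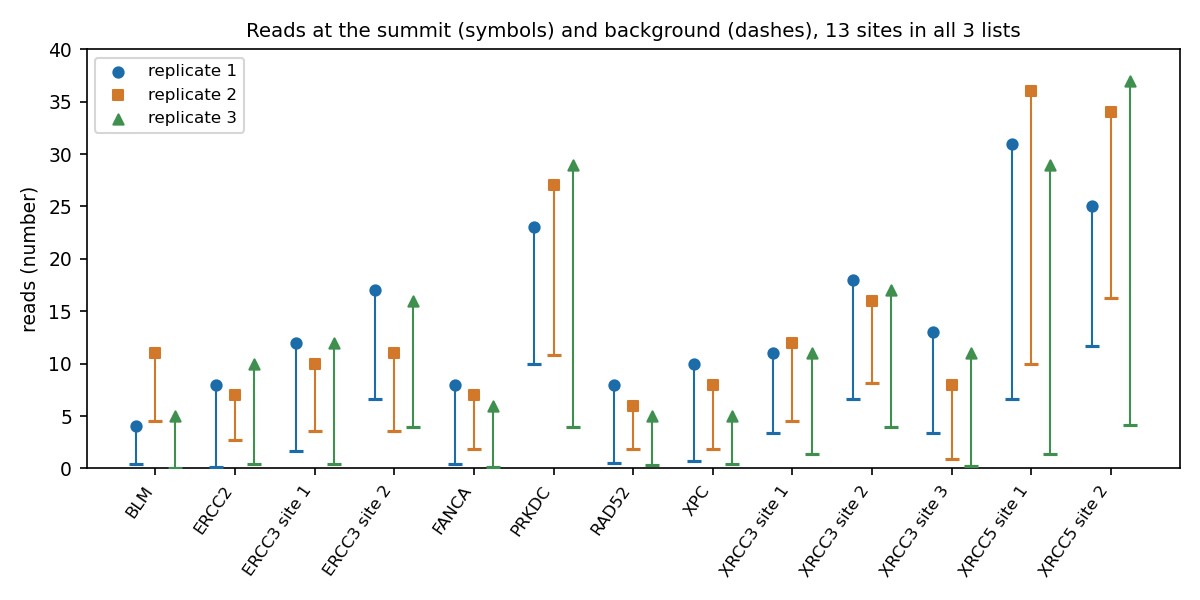
Reads at the summit (symbols) and the caller's background at the same place (dashes), in reads, for the 13 sites with a narrow peak in all 3 SNRPD2OE lists; the line between them is the gap within 1 list. The XRCC5 sites reach 25 to 37 reads, while BLM, FANCA, RAD52 and XPC rest on 4 to 11 reads.

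The site in XRCC5 at chr2:216122097-216122265 had the closest agreement. Its summits lay within 3 bp of each other, and 104 bp were covered by the peaks of all 3 lists. The reads at the summit were 31, 36 and 29 in replicates 1, 2 and 3, above backgrounds of 6.67, 9.93 and 1.38 reads. The deposited −log10 q was 2.11, 4.93 and 3.08, so q was under 0.05 in each list, which held at no other of the 13 sites. It lies 13.2% of the way from the low-coordinate end of the span, since no strand was given for XRCC5. The second XRCC5 site, chr2:216205250-216205372, had 25, 34 and 37 reads above backgrounds of 11.7, 16.3 and 4.15, and lay 921 bp from the high-coordinate end. Only replicate 3 had q under 0.05 there (−log10 q 1.82), and the summits of the 3 lists lay up to 80 bp apart.

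The 3 shared sites of XRCC3 were spread along its 17.8 kb. The site nearest the 5′ end, chr14:103714657-103714923, had its nearest summit 620 bp from it and held 13, 8 and 11 reads. Its summits lay up to 121 bp apart. The middle site, chr14:103708502-103708677, had 18, 16 and 17 reads with summits 8 bp apart, above backgrounds of 6.67, 8.13 and 3.94. The site near the 3′ end, chr14:103698807-103698981, had 11, 12 and 11 reads with summits up to 26 bp apart. It also lay in the span of KLC1. Reads at these 3 sites were close between the lists, and the −log10 p values lay between 2.26 and 6.31.

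In ERCC3 the site at chr2:127286876-127287005 had 12, 10 and 12 reads. The other ERCC3 site, chr2:127293531-127293711, had 17, 11 and 16 reads with the nearest summit 532 bp from the 5′ end, but no base of it was covered by all 3 peaks. ERCC2 had the nearest summit of its site 362 bp from the 5′ end, at chr19:45370139-45370318, with 8, 7 and 10 reads and folds of 5.24, 2.16 and 3.17. XPC had that summit 47 bp from the 5′ end, at chr3:14178484-14178560, where the peaks reach the printed stretch, with 10, 8 and 5 reads. The sites in BLM (chr15:90717357-90717468; 4, 11 and 5 reads) and FANCA (chr16:89816502-89816619; 8, 7 and 6 reads) had their nearest summits 21 and 44 bp from the 5′ end. At the FANCA site, no base was covered by all 3 peaks. RAD52 had the nearest summit of its site 2188 bp from the 3′ end, at chr12:913916-914102, with 8, 6 and 5 reads. The PRKDC site, chr8:47777760-47777871, had 23, 27 and 29 reads above backgrounds of 10, 10.8 and 3.94, and lay 2.52% of the way from the low-coordinate end. Summits of the 3 lists lay up to 90 and 52 bp apart at the ERCC3 sites, 27 bp in ERCC2 and 51 bp in XPC. They lay up to 74 bp apart in BLM, 79 bp in FANCA, 73 bp in RAD52 and 13 bp in PRKDC.

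Most of the shared sites whose strand is known lay next to the 5′ end. Of 10 such sites, 6 (60%) were in the first 10% of the span and within 1000 bp of the 5′ end, in XRCC3, ERCC2, ERCC3, XPC, BLM and FANCA. Over 1789 shared sites of protein-coding genes, 23.9% were in the first 10% and 20.7% within 1000 bp. That background holds genes of all lengths, so the 1000 bp share is not matched for length. The last 10% held 2 of the 10 (20%), in XRCC3 and RAD52, against 15.9%. These 10 sites come from 7 genes and are too few for more than a description. The lead also depends on the joining rule. With summits within 50 bp, ERCC2 and XPC kept their site, while BLM, FANCA and ERCC3 kept 0. XRCC3 lost the site near the 5′ end, with summits up to 121 bp apart, and kept 2 sites. RAD52 kept 1, so most of the kept sites with a strand did not lie next to the 5′ end.

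**Figure D3:**
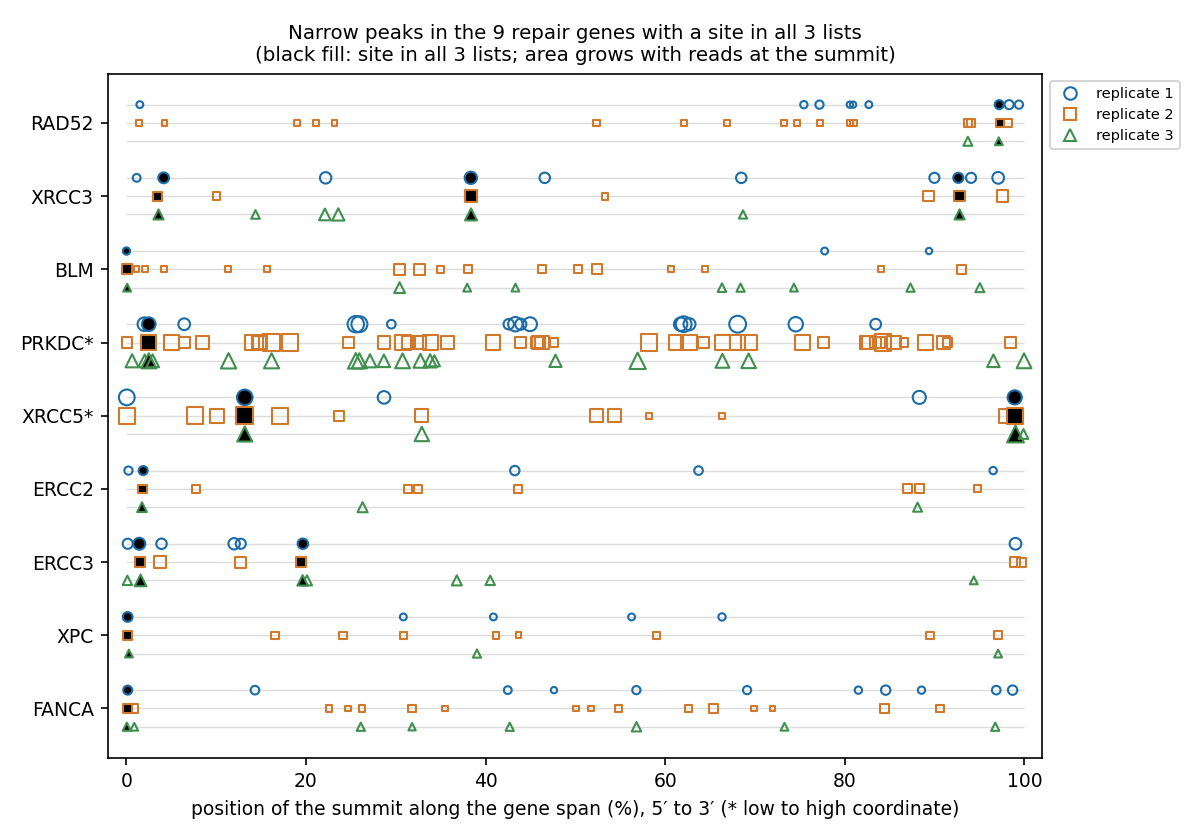
Summits of narrow peaks along the spans of the 9 genes with a shared site, in percent of the span from 5′ to 3′ (from low to high coordinate for PRKDC and XRCC5), 1 row for each replicate; symbol area grows with reads, and black symbols belong to a shared site. Black symbols sit at the left edge in BLM, ERCC2, ERCC3, XPC and FANCA, and other peaks of the same genes are spread over the span.

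Sites joining 2 lists included strong peaks that the remaining list lacked. In BLM, replicates 2 and 3 each had 13 reads at summits 2 bp apart (chr15:90747401-90747480 and chr15:90747397-90747446), with −log10 q of 6.09 and 2.02. The replicate 2 peak was its strongest in any member by −log10 p (fold 7.36, −log10 p 11.93). In FANCA, replicates 1 and 2 had 9 and 6 reads at chr16:89749725-89749878 and chr16:89749778-89749877, with −log10 q of 2.99 and 2.51. These were the only sites of exactly 2 lists in the 41 members where both peaks had q under 0.05. Sites of replicates 1 and 2 lay in 27 of the 41 members, sites of all 3 counted among them, against 26.2% of protein-coding genes.

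Counted by peaks, 64 of 175 replicate 1 peaks (36.6%) overlapped a replicate 2 peak and 25 (14.3%) a replicate 3 peak, against 35.0% and 14.5% over protein-coding genes. For replicate 2 the shares were 64 of 524 (12.2%) with replicate 1 and 50 (9.54%) with replicate 3, against 8.31% and 4.47%. For replicate 3 they were 25 of 138 (18.1%) with replicate 1 and 50 (36.2%) with replicate 2, against 27.2% and 35.2%. Spearman's rho between the counts of the 41 genes was 0.35 for replicates 1 and 2, 0.37 for 1 and 3 and 0.33 for 2 and 3. Per length of span it was 0.12, 0.27 and 0.42. These correlations are across genes, which are not independent replicates and which share the span length.

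Read support behind the member peaks was low in all 3 lists. The median member peak had 6, 3 and 8 reads at the summit in replicates 1, 2 and 3, against 5, 1 and 7 for all protein-coding genes. Only 1 read supported 194 of the 524 replicate 2 peaks (37.0%, against 65.1% over protein-coding genes), 0 peaks in replicate 1 and 3 in replicate 3. At least 10 reads lay at 52, 110 and 62 peaks (29.7%, 21% and 44.9%), against 22.4%, 6.85% and 32.5%. A deposited q under 0.05 was given for 12, 45 and 9 member peaks (6.86%, 8.59% and 6.52%), against 4.58%, 4.35% and 4.51%. The peaks that met another list were deeper than those that stood alone. In replicate 2 the median was 7.5 reads for 102 member peaks that met another list and 2 reads for the 422 alone. In replicates 1 and 3 it was 8 against 5 and 11 against 7. Protein-coding genes had the same direction, with 7 against 4, 6 against 1 and 8 against 7 in replicates 1, 2 and 3. Depth of the libraries is otherwise unknown, and duplicate reads cannot be told from independent molecules.

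Along the gene, narrow peaks of members with a known strand were by the mean most frequent at both ends, with all narrow peaks counted. In replicate 1 the stretch just before the last 10% held 15%, as much as the first 10%. The first 10% of the span held 15.0%, 12.3% and 17.9% of the peaks in replicates 1, 2 and 3, a mean of 15.1% ± 2.80 (SD, n = 3 replicates). Over protein-coding genes the mean was 15.1% ± 3.11, a difference smaller than the spread between replicates. The last 10% held 15.7%, 14.4% and 13.2%, a mean of 14.4% ± 1.25, against 18% ± 0.932 over protein-coding genes. In each replicate the members' share was the lower one, and the members' 3 values did not overlap the 17.4% to 19.1% of protein-coding genes. Without summits that also lay in another gene the members' share in the last 10% was 9.81% ± 1.91. An even spread would give 10%, so the higher share at the 3′ end did not hold without those summits. That filter was not applied to protein-coding genes, so the 9.81% cannot be set against their 18%. By the mean, the stretch from 70% to 80% of the span held the least, 6.82% ± 1.58, but the single replicates differed. It held 5%, 7.91% and 7.55% in replicates 1, 2 and 3. In replicate 1 another stretch also held 5%, and other stretches went down to 7.21% in replicate 2 and 3.77% in replicate 3. Within 2 kb of the 5′ end lay 11.3% ± 2.96 of the peaks (13.4% ± 4.97 over protein-coding genes), and within 2 kb of the 3′ end 7.54% ± 2.46 (10.9% ± 1.55). These shares rest on 140, 430 and 106 peaks of the 36 members with a strand.

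**Figure D4:**
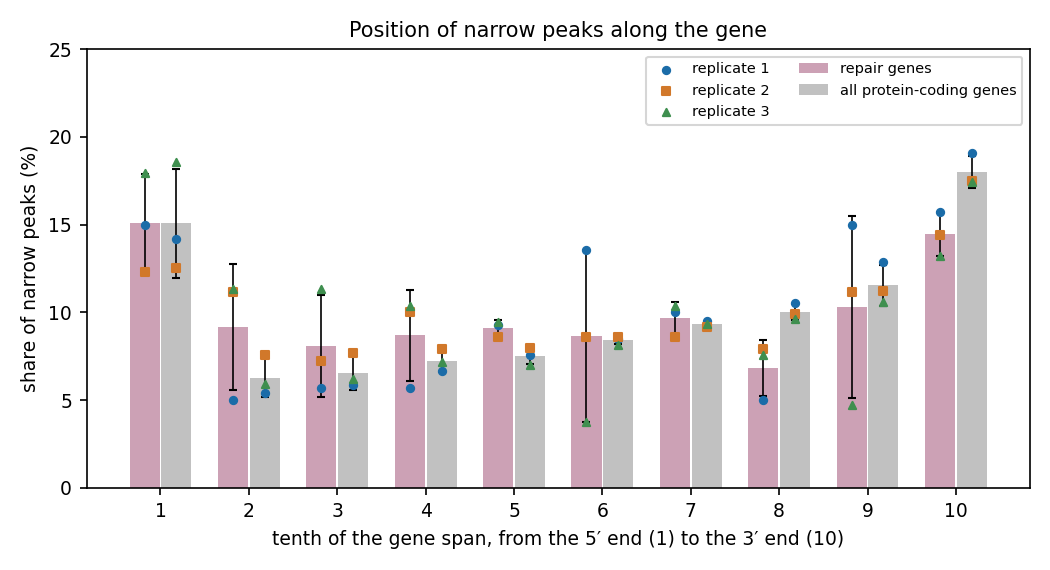
Share of narrow peaks (percent) in each 10% of the gene span from the 5′ to the 3′ end, for repair genes and for all protein-coding genes; bars are means over the 3 SNRPD2OE replicates, error bars 1 SD, symbols the replicates. Both groups start at 15.1%, and in the last 10% the repair genes reach 14.4% and the protein-coding genes 18%.

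Longer members had more narrow peaks in replicate 2, and much less so in the other lists. Spearman's rho of span length and number of peaks over the 41 genes was 0.29, 0.69 and 0.13, a mean of 0.37 ± 0.29 (SD, n = 3 replicates), and over 20037 protein-coding genes it was 0.38, 0.72 and 0.20. Peaks per 100 kb were fewer in longer members (rho of -0.22, -0.50 and -0.28), while over protein-coding genes that rho was 0.17, 0.04 and 0.10. Pooled by length, however, protein-coding genes also held fewer peaks per 100 kb when longer. They held 7.05, 19.9 and 4.63 under 20 kb and 1.07, 6.35 and 0.42 at 100 kb or more. Only 28.4%, 56.6% and 21.1% of protein-coding genes under 20 kb had a narrow peak in replicates 1, 2 and 3. XRCC4, with 297 kb the longest member, had the lowest density in replicate 2, 3.37 per 100 kb.

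Genes of like length give the closer background for a list of long genes. Under 20 kb, 2 of 3 members had a narrow peak in all 3 lists, against 12.6% of protein-coding genes of that length. From 20 to 50 kb the count was 12 of 18, against 32.6%, from 50 to 100 kb it was 11 of 12, against 35.6%, and at 100 kb or more it was 6 of 8, against 31.6%. A shared site was found in 1, 3, 4 and 1 members of these 4 classes, against 4.71%, 10.6%, 9.96% and 8.31% of protein-coding genes. Density was higher in members within each class: from 20 to 50 kb they held 8.51, 24.6 and 7.41 peaks per 100 kb, against 4.99, 16.4 and 3.19. At 100 kb or more they held 4.76, 15.3 and 2.66, against 1.07, 6.35 and 0.42. The part of transcript abundance in these differences was not tested.

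**Figure D5:**
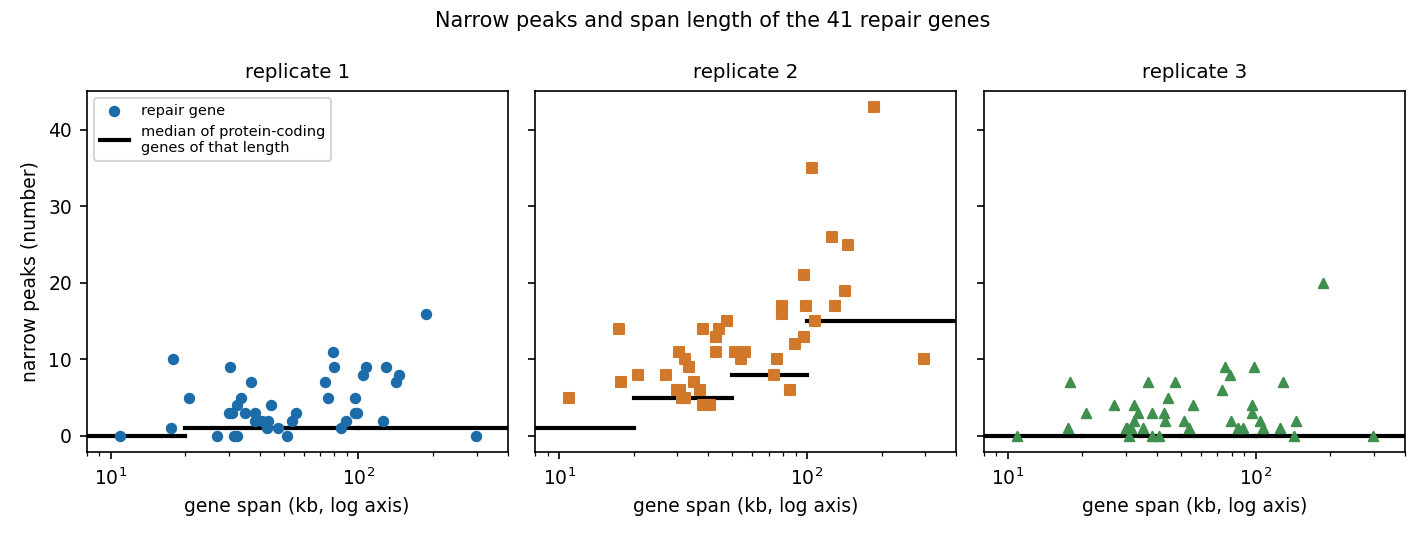
Number of narrow peaks against span length (kb, log axis) of the 41 repair genes in each SNRPD2OE replicate; black lines are the medians of protein-coding genes of the same length class. In replicate 3 the line stays at 0 in each class, and 35 of the 41 genes have a peak.

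Other repair genes, a list of 74 that holds the remaining factors of the same pathways, gave a like picture. Narrow peaks lay in 66, 72 and 49 of the 74 in replicates 1, 2 and 3, against 45.3%, 76.7% and 30.3% of protein-coding genes. In all 3 lists 44 of the 74 had one, a lower share than the 31 of 41 members, against 23.9% of protein-coding genes. Per 100 kb the 74 genes held 4.76, 15.1 and 3.53 peaks, below the members' 6.13, 18.3 and 4.83. Shared sites numbered 21 in 15 of the 74 genes, and 7.48% of protein-coding genes had such a site. UNG, the glycosylase that removes uracil from DNA, had 4 of them with 6, 7 and 5 peaks. DDB1 and DDB2, whose proteins find ultraviolet damage together, had 3 and 2. Genes with 1 shared site each included RAD9A, TONSL, RAD51C, RBBP8, EXO1, DNA2, RECQL, TOP3A, POLQ and APTX. All 3 RAD9A peaks also lay in another annotated gene, so its site cannot be given to RAD9A alone.

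Overlap with other annotated genes touched 28, 84 and 14 of the member peaks (16.0%, 16.0% and 10.1%), against 9.67%, 11.3% and 10.8% over protein-coding genes. Reads from such positions cannot be given to 1 gene. Annotated pseudogene copies of other members were 6 for CHEK2, 2 for PARP1 and 1 each for MRE11, BRCA1 and RAD52, and how reads that match several places were counted is not given in the sources used here. A −log10 p of at least 3 left 2 of the 13 shared sites, in XRCC5 and FANCA, and 19 of the 31 members with a peak in all 3 lists.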

How the data were processed

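The 41 genes, the list of 74 other repair genes and the alternatives were chosen with earlier results of these data known. RIP-seq peak lists, 1 for each of 3 SNRPD2OE samples of HEK293T, were analysed. Per the labels, the genotype gives the group of a sample. Lists of the 3 Ctrl samples were not analysed here. The build was GRCh38 and the tools MACS2 2.2.9.1, STAR 2.7.10b and cutadapt 4.2, per the submitters' processing notes. Not given in the sources used here are their options, the background library and the treatment of duplicates. Each deposited score equals −log10 p multiplied by 10, without decimals. The deposited fold is that of the summit over the caller's background, and the deposited −log10 p and −log10 q are those of the summit. The other deposited columns are positions. Reads at each summit and the background were solved from the fold and −log10 p of all listed nuclear peaks, within a relative tolerance of 1e-05. The heights of 1 read were 0.599, 1 and 0.254. The same step recovered 100% of known reads in data simulated with the same formulas. That checks the arithmetic of the step, and cannot show that the deposited values follow those formulas.

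Summits were placed in RefSeq gene spans of GRCh38, and the strand came from RefSeq promoter windows (36 of 41 members, 15843 of 20037 protein-coding genes). NBN, WRN, PRKDC, XRCC5 and FANCI had no strand and are left out of positions. Exons and introns were not used here. Counts and shares are given with no test, because each sample has 1 list and the control lists were not analysed. Some of the other repair genes are not reported here by name. Full values are given for members with a shared site, for the member with most peaks in a pathway and for the strongest member peak of a list. Alternatives were no width limit, a −log10 p of at least 3, at least 3 reads, lists of equal length, no other gene at the summit, other overlap rules, each gene counted once and leaving out each replicate. Python 3.11.15, NumPy 2.4.6, pandas 2.3.3 and SciPy 1.17.1 were used, with Matplotlib 3.10.9 for plots.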

Additional observations from a re-analysis of the deposited data

How the results depend on the processing

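The number of members with a narrow peak in all 3 lists was 31 of 41 (23.9% of protein-coding genes). It was 34 with no width limit (38.5%), 29 with at least 3 reads at the summit (21.1%), 22 with lists of equal length (13.6%), 28 without summits in another gene (20.4%) and 19 with a −log10 p of at least 3 (13.8%). Without one replicate it was 31 to 35 (28.8%, 24.6% and 43.6% without replicates 1, 2 and 3). Shared sites numbered 13 in 9 members, and 7.48% of protein-coding genes had one. They were 19 in 13 members with no width limit (19.5%), 12 in 9 without summits in another gene (6.39%), 11 in 8 with at least 20 bp covered by all lists (5.98%), 7 in 6 with summits within 50 bp (4.64%) and 2 in 2 with a −log10 p of at least 3 (2.57%). Without one replicate, where sites needed 2 lists only, they were 25 to 64: 50 in 21 members without replicate 1 (15.9%), 25 in 13 without replicate 2 (12.9%) and 64 in 27 without replicate 3 (26.2%). The members' share in the last 10% of the span (14.4%) was 14.9% with each gene counted once, 13.1% with a −log10 p of at least 3, 9.81% without summits in another gene and 13.8% to 15.1% without one replicate. The cause of these shifts was not tested. The mean rho of span length and peak number (0.37) was 0.33 with a −log10 p of at least 3, 0.39 without summits in another gene and 0.21 to 0.49 without one replicate. No paired analysis was possible because 1 group of samples was analysed and no result comes from a test between groups. Low read numbers limit each single peak: the median member peak rests on 6, 3 and 8 reads.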
